A study of Mus musculus with 96 samples.

Results

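Small nucleolar RNA (snoRNA) genes were represented by 63 of the 28310 transcript clusters analysed, where a cluster is the set of array probes whose signals are summarized into 1 value per array. The members were all clusters whose only gene symbol starts with Snord or Snora, whatever their level. Snord symbols stand for box C/D RNAs and Snora symbols for box H/ACA RNAs, and the clusters divided into 32 of box C/D and 31 of box H/ACA. They carried 56 gene symbols, 7 of which had 2 clusters. For 4 of these 7 genes (Snord118, Snora30, Snora5c and Snora19) both clusters held identical values in every array, so that the 63 clusters gave 59 distinct signals.

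The RNA came from 16 adult males of 2 inbred mouse strains, 8 mice each, C57BL/6J and NOD/ShiLtJ, of which the latter is prone to autoimmune diabetes. In each strain 4 mice had been injected with clozapine, a second-generation antipsychotic, and 4 with vehicle alone, and all were killed 3 hours later. Each mouse gave 3 samples of total RNA, the forebrain and the hindbrain of one hemisphere and the other hemisphere intact (called whole brain), and the cerebellum had been removed from all of them. The labels name no transgene or engineered allele. Each of the 48 samples was hybridised to a 1.1ST array (a peg format) and to a 1.0ST array (a cartridge format), and values are log2 intensities. Both formats measured the same RNA, so the second array repeats the measurement and adds no mouse.

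SnoRNAs are short noncoding RNAs of the nucleolus. Box C/D RNAs bind fibrillarin and its partners and guide 2′-O-methylation, whereas box H/ACA RNAs bind dyskerin and its partners and guide the conversion of uridine to pseudouridine. Most of their targets lie in ribosomal RNA, and a few members (Snord118, Snord14, Snord22 and the Snora73 pair among them) are needed for cleavage of the ribosomal RNA precursor rather than for its modification alone. In mammals most snoRNAs lie in introns of other genes and are released from the spliced intron, so that a snoRNA and the mRNA of its host gene start as a single transcript and are then degraded separately. The neurons of the brain are also known for imprinted box C/D clusters, such as Snord115 and Snord116.

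Hosts were assigned by the position of the snoRNA gene, on the same strand, in the RefSeq annotation, and 61 of the 63 clusters received a host gene. Where a gene had 2 clusters, both received the same host, and the position of each cluster itself was not used. The exceptions were the 2 clusters of Snord118. The hosts were 47 genes, among them 16 genes of ribosomal proteins that held 23 of the members, and 14 members lay in hosts annotated as long noncoding RNA genes such as Gas5, Snhg1, Snhg3 and Snhg12. No cluster of Snord113, Snord114, Snord115, Snord64 or Snord107 carried a symbol of its own. The gene table of the 1.0ST array named Snord116 in 24 clusters, always beside other symbols, so these lay outside the rule. They held 7 distinct signals with means between 10.55 and 11.33 on the 1.1ST arrays.

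The letters of 4 members could be shown in part, because a microRNA hairpin of RefSeq (GRCm38.p6) lies over them on the same strand. These 4 recur among the results: Snora34 in the comparison of clozapine with vehicle, Snora36b and Snora19 in the agreement of the formats, and Snord33 among the members that varied together. Each hairpin is written 5′ to 3′, and capitals mark the bases that it shares with the annotated snoRNA.
Snora34, in Kansl2, shares 73 of the 117 bases of the Mir1291 hairpin at chr15:98519762-98519878, minus strand: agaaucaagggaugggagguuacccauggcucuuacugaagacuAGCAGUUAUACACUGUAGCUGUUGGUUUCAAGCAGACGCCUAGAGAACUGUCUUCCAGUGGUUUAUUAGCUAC
Snora36b, in Rab3gap2, shares 64 of the 69 bases of the Mir664 hairpin at chr1:185242975-185243043, plus strand: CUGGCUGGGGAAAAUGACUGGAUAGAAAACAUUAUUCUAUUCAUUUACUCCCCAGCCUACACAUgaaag
Snora19, in Eif3a, shares 56 of the 69 bases of the Mir3084-2 hairpin at chr19:60774329-60774397, minus strand: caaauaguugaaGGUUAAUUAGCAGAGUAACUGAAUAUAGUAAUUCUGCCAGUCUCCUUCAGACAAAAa
Snord33, in Rpl13a, shares 28 of the 74 bases of the Mir5121 hairpin at chr7:45126918-45126991, minus strand: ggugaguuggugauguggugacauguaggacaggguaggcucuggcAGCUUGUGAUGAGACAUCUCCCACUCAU
In all 4 the snoRNA, the hairpin and the host gene run the same way, so a probe over the shared bases would read either product of the intron or the unspliced host RNA. Probe sequences were not used here, and what share of a cluster's signal came from mature snoRNA was not tested. The RNA had been purified on a silica column, a method that keeps long RNA better than short.

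On the 1.1ST arrays, 48 of the 63 clusters (76.2%) had a mean above log2 5, compared with 68.7% of all clusters. The 48 were 23 of box C/D and 25 of box H/ACA. At a threshold of 4 there were 61 clusters, and at 6 there were 38. The threshold split few clusters between arrays, since 45 lay above 5 in every array and 9 below it in every array. The median of the members' means was 6.58 (6.52 over all clusters). Snord104 had the brightest cluster with a mean of 11.97, followed by Snora52 at 10.76, Snord57 at 10.70, Snord49b at 10.25 and Snord82 at 9.55. The next were Snora23 at 8.76, Snora7a at 8.68, Snord42b at 8.65 and both clusters of Snora3 at 8.35 and 8.23. These are probe signals and give no ranking of amounts of RNA, since the probes of each cluster bind with their own strength.

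The 1.0ST arrays gave higher values throughout, with array medians between 8.14 and 8.23 against 6.28 to 6.61 on the 1.1ST arrays. There 59 clusters (93.7%) lay above 5, as did 94.0% of all clusters. The same 48 were above 5 on both formats, 11 were above 5 on the 1.0ST arrays alone, 4 were below on both and none was above on the 1.1ST arrays alone. The shift from 1.1ST to 1.0ST had a median of 1.34 over the members (1.39 over all clusters) and ran from −0.07 to 2.27. The order of the means was similar on both formats, with a Pearson r of 0.953 and a Spearman rho of 0.970 over the 63 clusters, which are not independent of each other. The study describes the probes of both formats as nearly the same, so both means of a cluster carry the binding strength of its probes.

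**Figure D1:**
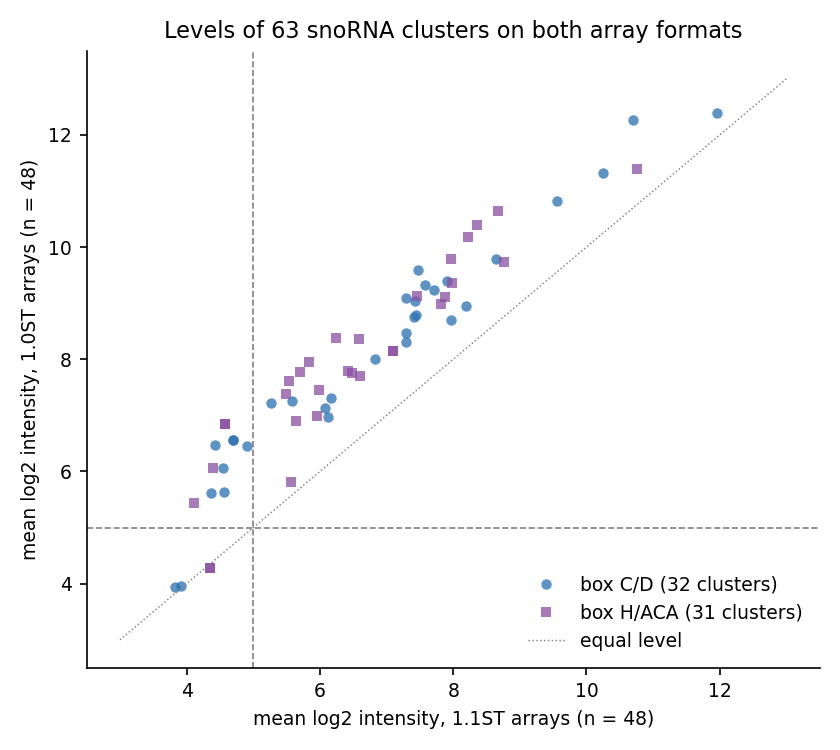
Mean log2 intensity of each of the 63 snoRNA clusters over 48 arrays, with the 1.1ST format on the horizontal and the 1.0ST format on the vertical axis and lines at 5 on both. The points follow a line above the diagonal, 48 lie above 5 on both formats, 11 on the 1.0ST arrays alone and 4 on neither.

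The formats agreed less over samples than over clusters, although these are unlike measures, since only the r over clusters includes differences in probe strength. For each member, Pearson's r was computed over the 48 samples, which share mice. Its median was 0.469, compared with 0.507 over all clusters, and 30 of the 63 members had an r above 0.5 (50.4% of all clusters). Snord53 had the highest value at 0.960, then Snora52 and Snora23 (both 0.934), Snora73b at 0.928 and Snora73a at 0.924. The lowest were Snora36b at −0.17, Snord73a at −0.02, Snord38a at −0.01, Snord15a at 0.045 and both clusters of Snora19 at 0.048. Snora36b, whose letters are printed above and whose cluster the 1.0ST gene table names for Mir664 as well, had a mean of 4.12 on the 1.1ST arrays. Members with a mean above 5 on the 1.1ST arrays had a median r of 0.572 and the others of 0.312. With each array centred on its own median, the median r was 0.483 over the members and 0.505 over all clusters.

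Over the 48 arrays of the 1.1ST format the SD was largest at Snord53 (1.06), Snora73b (0.474), Snora73a (0.453), Snord16a (0.390) and Snord35b (0.358). For most members the variation lay between samples of the same strain and region. After each sample's group mean (6 groups, by strain and region) had been subtracted, the median r between formats was 0.418 for the members and 0.297 for all clusters. The median SD within groups was 0.208 for the members and 0.135 for all clusters on the 1.1ST arrays, and 0.180 and 0.125 on the 1.0ST arrays. Differences between the 6 groups took up a median of 16.2% of a member's variance, compared with 27.6% over all clusters. Box H/ACA RNAs of the lncRNA gene Snhg3 varied the most within groups. Snora73b ranged from 7.32 to 9.14 with a median of 8.12 over the 8 whole-brain arrays of C57BL/6J, and from 7.63 to 9.12 with a median of 8.01 over those of NOD/ShiLtJ. The strains covered nearly the same range, and their means were 8.09 ± 0.62 and 8.09 ± 0.50 (SD, n = 8). The r of Snora73b between formats within groups was 0.927.

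Members also varied together within groups. Over the 1711 pairs of distinct signals, the mean r within groups was 0.150 (1.1ST format) and 0.186 (1.0ST format), where all clusters had 0.0127 and 0.0120. Of the 1711 pairs, 138 had an r above 0.5 on the 1.1ST arrays and 202 on the 1.0ST arrays. The 48 arrays share mice and array processing. Snora73a and Snora73b, which lie in the same host, had an r of 0.969 (0.973 on the 1.0ST arrays). Their sequences are similar, so a shared signal between their probes cannot be told apart from shared levels. Snord33 and Snord35a, both in Rpl13a, had an r of 0.683 and 0.834, and Snora16a and Snora61, both in Snhg12, of 0.618 and 0.676. The 12 pairs of different symbols in the same host, from 10 hosts, had a median r of 0.382 and 0.478, compared with 0.143 and 0.191 over all pairs of members. A shared host did not give a high value in every case, as Snord73a and Snord73b, both in Rps3a1, had 0.056 and 0.202.

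**Figure D2:**
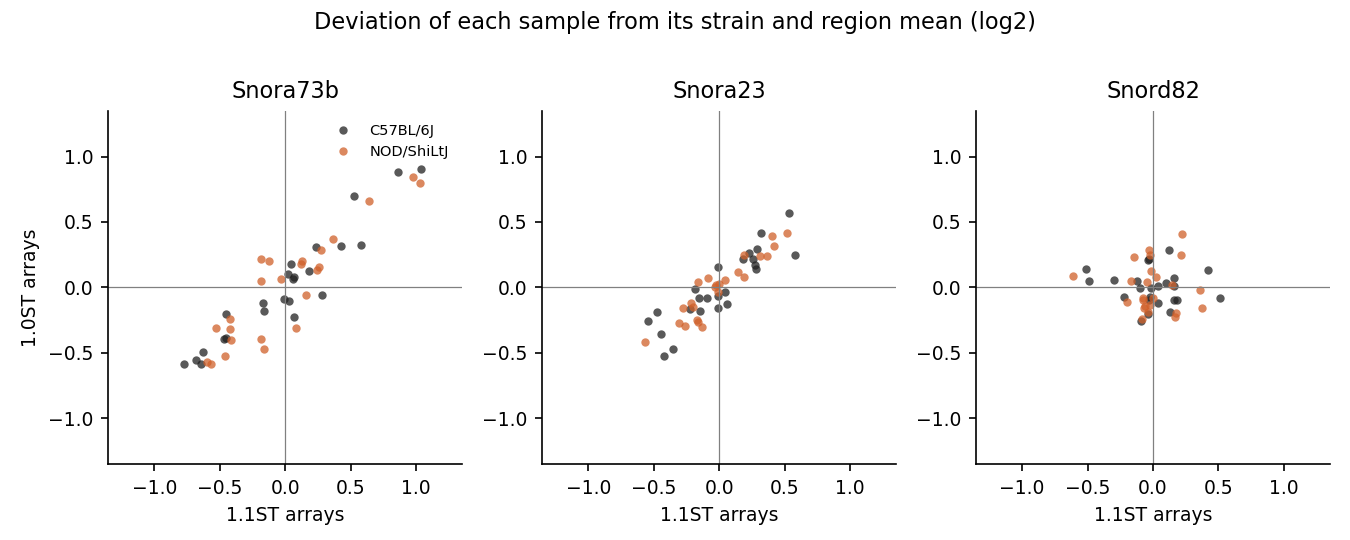
Deviation of each sample from the mean of its strain and region (log2), for Snora73b, Snora23 and Snord82, with the 1.1ST format on the horizontal and the 1.0ST format on the vertical axis. Points are the 48 samples. Snora73b and Snora23 follow the diagonal (r = 0.927 and 0.908), whereas Snord82 (r = −0.06) does not.

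Mouse BB703, a C57BL/6J mouse treated with clozapine, stood apart in 3 members. Its Snord16a signal was 8.62 in forebrain, where the other 7 C57BL/6J mice lay between 7.35 and 7.73 with a median of 7.39. In hindbrain it was 8.30 against 6.99 to 7.48, and in whole brain 8.59 against 7.25 to 7.54. Snord22, a box C/D RNA of Snhg1, was likewise above the other 7 mice in each region, at 5.53 against 5.07 to 5.47 in forebrain. Snord14e, a box C/D RNA of the heat shock gene Hspa8, was below them, at 7.41 against 7.94 to 8.41 in forebrain. All 3 signals lay outside the range of the other 7 mice of the strain in all 3 regions and on both formats. These 3 of 63 members (4.76%) compare with 184 of all 28310 clusters (0.650%) for this mouse, and no member was apart in this way in any of the other 15 mice, which had between 0 and 63 such clusters each. Without this mouse the fits called 18 members between hindbrain and forebrain, and 7, 6 and 8 between strains in forebrain, hindbrain and whole brain. They called 1 between whole brain and forebrain and 2 for clozapine. The shares of all clusters called without BB703 are not given here, so these counts were not compared with them. The effect of leaving out BB703 on the named members is given beside them. In earlier results of these data the whole-brain array of mouse DD656 (NOD/ShiLtJ, vehicle) also stood apart, and it is left out in the same way.

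The strains differed most at Snord53, a box C/D RNA in an intron of Wdr43. On the 1.1ST arrays its forebrain values were 6.51 to 7.14 (median 6.91) in C57BL/6J and 8.56 to 8.94 (median 8.86) in NOD/ShiLtJ, and the strains did not overlap. The hindbrain values were 6.53 to 7.23 (median 6.78) and 8.75 to 9.60 (median 9.20), and the whole-brain values 6.76 to 7.26 (median 6.92) and 8.06 to 9.23 (median 8.72). All NOD/ShiLtJ mice were thus above all C57BL/6J mice in each region. By limma, Snord53 was higher in NOD/ShiLtJ by 1.91 (SE 0.11) in forebrain, a 3.75-fold difference, by 2.31 (SE 0.12) in hindbrain and by 1.78 (SE 0.11) in whole brain, with FDRs of 1.5e-17, 1.18e-19 and 6.59e-17. The 1.0ST arrays gave 2.12, 2.41 and 1.99. Snord53 had 95.3% of its variance between the 6 groups, and its r between formats was 0.960 over all samples and 0.06 within groups, where Snora52 and Snora23 had 0.921 and 0.908. The mRNA of its host Wdr43, a ribosome biogenesis factor, moved the other way and was lower in NOD/ShiLtJ by 0.15 (SE 0.04, FDR 0.00629) in forebrain. Over the 48 arrays of the 1.1ST format the clusters most like Snord53 by Pearson's r were those of Abhd1 (0.964), Nnt (0.963), Wdfy1 (0.958) and Snrpe (0.957) and a cluster that names several zinc finger genes (0.957). As nearly all variance of Snord53 lay between groups, these r values mainly carry the strain difference. Whether these clusters share more with Snord53 than that was not tested. A sequence difference between the strains under the probes and a difference in RNA level cannot be told apart in these values.

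Of the 63 members, 1 was higher and 7 were lower in NOD/ShiLtJ in forebrain at an FDR below 0.05, where 8.9% of all clusters were higher and 8.69% lower. In hindbrain 2 were higher and 3 lower (12% and 9.05% of all clusters), and in whole brain 2 were higher and 5 lower (9.1% and 8.47%). In this fit the share lower in forebrain was the only one of the 6 above that of all clusters. The 1.0ST arrays called 2 members higher and 10 lower in forebrain (12.5% and 8.82% of all clusters), 4 and 13 in hindbrain (13.6% and 11.5%) and 3 and 12 in whole brain (10.3% and 9.23%), so that there the share lower was above that of all clusters in each region and the share higher below it. The counts lower on the 1.0ST arrays include, in each region, both clusters of Snord118, which hold identical values, and both of Snord58b, which are nearly alike. Those of the 1.1ST arrays in forebrain and whole brain also include both clusters of Snord58b. The median difference over the 63 members in forebrain was −0.05, against 0.01 over all clusters. Called the same way on both formats were 6 members in forebrain (12.9% of all clusters), 3 in hindbrain (15.9%) and 6 in whole brain (12.9%). Of the 3 microglial markers listed, 2 were higher in NOD/ShiLtJ in forebrain and all 3 in hindbrain and in whole brain, with medians of 0.20, 0.23 and 0.20. The 1 oligodendrocyte marker measured was higher in forebrain (0.25) and hindbrain (0.29). Of 3 astrocyte markers, 1 was higher and 1 lower in forebrain, 2 were higher in hindbrain and 1 in whole brain. In hindbrain 1 marker each of neurons, telencephalon and choroid plexus was lower, and in whole brain 1 brainstem marker was higher. The part of these markers in the results was not tested. The strains did not overlap in forebrain at 2 members (3.49% of all clusters), Snord53 and Snord16a, and in hindbrain (3.88%) and whole brain (3.29%) at Snord53.

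**Figure D3:**
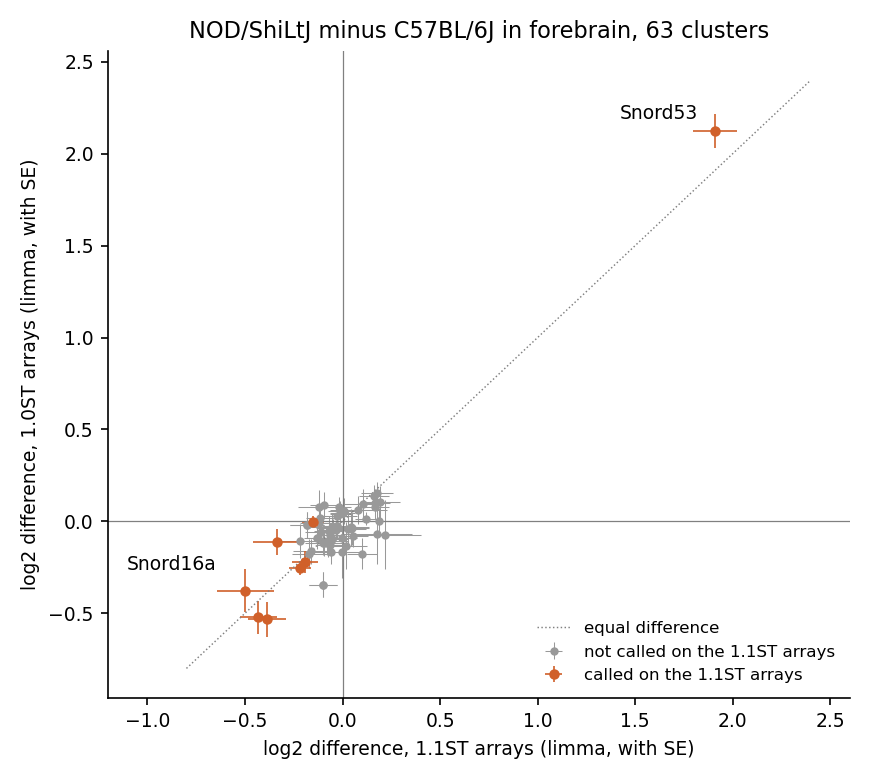
Difference NOD/ShiLtJ minus C57BL/6J in forebrain (log2, with SE, limma) of the 63 clusters, with the 1.1ST format on the horizontal and the 1.0ST format on the vertical axis. Snord53 lies at 1.91 and 2.12 near the line of equal difference, apart from all others, and the 7 clusters called lower lie between −0.50 and −0.15 on the 1.1ST arrays.

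Snord16a, a box C/D RNA in Rpl4, was lower in NOD/ShiLtJ. It ranged from 7.35 to 8.62 (median 7.41) in the forebrain of C57BL/6J and from 6.59 to 7.30 (median 7.16) in that of NOD/ShiLtJ. The ranges were apart by a small step, the highest value was that of mouse BB703, and on the 1.0ST arrays the strains overlapped. Snord16a fell by 0.50 (SE 0.15, FDR 0.00972 by limma) in forebrain, by 0.42 (SE 0.15, FDR 0.0313) in hindbrain and by 0.42 (SE 0.14, FDR 0.0271) in whole brain, and by 0.38, 0.34 and 0.32 on the 1.0ST arrays. Without BB703 the differences were −0.30, −0.31 and −0.24 and were called in each region. A mixed model fitted to each transcript gave FDRs of 0.0639, 0.0708 and 0.0905. Without DD675, DD677 or BB686 the call in hindbrain was lost, and without DD656, its whole-brain array alone or DD658 the call in whole brain. In contrast to its snoRNA, the host Rpl4 differed by 0.02 in forebrain.

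Snord58b is a box C/D RNA of Rpl17 with 2 clusters, whose deviations within groups had an r of 0.986, so they are close to a single measurement. In forebrain the brighter cluster (10456717) ranged from 3.84 to 4.79 (median 4.05) in C57BL/6J and from 3.57 to 4.12 (median 3.75) in NOD/ShiLtJ. The strains overlapped, and both clusters lay below log2 5. The cluster fell by 0.43 (SE 0.09, FDR 0.000491 by limma) in forebrain and by 0.42 (SE 0.09, FDR 0.000531) in whole brain, and on the 1.0ST arrays by 0.52 in both. The second cluster (10414659) fell by 0.39 in both regions. Without BB703 the differences were −0.32 and −0.34 for the brighter cluster and −0.28 and −0.31 for the second, all called. The difference in hindbrain was −0.15 (FDR 0.218) and −0.13 (FDR 0.281), and that of the 1.0ST arrays was −0.35 for both clusters (FDR 0.00267 and 0.00339).

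Snora20, a box H/ACA RNA of the chaperonin gene Tcp1, ranged from 5.83 to 6.43 (median 6.09) in the whole brain of C57BL/6J and from 5.47 to 6.10 (median 5.87) in that of NOD/ShiLtJ. It fell by 0.38 (SE 0.12, FDR 0.0160 by limma) in whole brain, a call lost without DD658, and by 0.29 on the 1.0ST arrays. In forebrain it fell by 0.33 (SE 0.12, FDR 0.0399), a call that was lost on leaving out any of 9 of the 16 mice and on the 1.0ST arrays (−0.11). Without BB703 the forebrain difference was −0.19 (FDR 0.178). Snord42b, a box C/D RNA of Rpl23a, fell by 0.22 in forebrain (SE 0.06, FDR 0.00342) and by 0.19 in whole brain (SE 0.06, FDR 0.0112), and the 1.0ST arrays gave −0.25 and −0.09. Snora28, in Eif5, fell by 0.19 in forebrain (FDR 0.0274) and by 0.22 on the 1.0ST arrays, and without BB703 the call was lost (−0.18, FDR 0.0573). The 1.0ST gene table names the cluster of Snora28 for its host Eif5 as well, and its r between formats within groups was −0.02. Snord8, in Chd8, fell by 0.15 in forebrain (FDR 0.0444), with −0.001 on the 1.0ST arrays.

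Snord55, a box C/D RNA, was the other member higher in NOD/ShiLtJ. It rose by 0.24 (SE 0.06, FDR 0.0015 by limma) in hindbrain and by 0.18 (SE 0.05, FDR 0.00993) in whole brain, with 0.08 and 0.14 on the 1.0ST arrays and calls that held on leaving out any of the 16 mice. Snora62, in Rpsa, fell by 0.17 (FDR 0.0287) and Snord14e by 0.30 (FDR 0.0249) in hindbrain, neither called on the 1.0ST arrays. Without BB703 the difference of Snord14e was −0.36 (FDR 0.000495). Its call was lost without DD677 or BB687, and that of Snora62 without any of 4 mice. Without DD677 or BB686, 3 members were called in hindbrain in all, and without DD675 there were 9. The shares of all clusters called in these fits are not given here, so the counts were not compared with them.

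Whether the strain difference itself differed between hindbrain and forebrain was tested by the interaction term of the same limma fit. No member passed at an FDR below 0.05, 5 had an unadjusted p below 0.05, and 2.42% of all clusters passed. None passed on the 1.0ST arrays or with the mixed model, and 1 passed without DD675. The interaction of Snord53 was 0.40 (SE 0.16, FDR 0.18). The calls in one region and not in another, as for Snord58b, are therefore not shown to differ between regions.

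**Figure D4:**
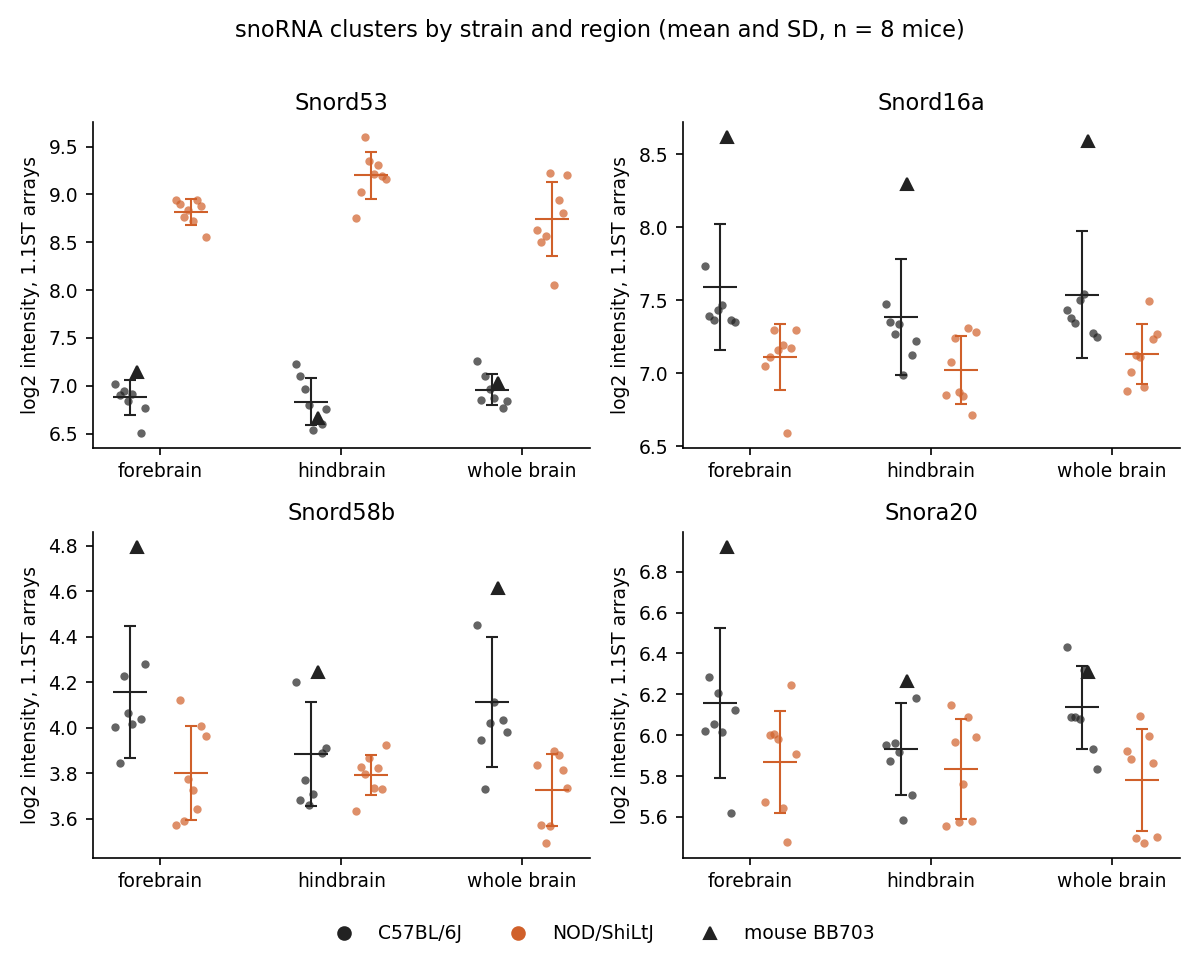
Log2 intensity on the 1.1ST arrays of Snord53, Snord16a, Snord58b and Snora20 in each of 8 mice per strain and region, with the mean and SD of each group and mouse BB703 as a triangle. The strains are apart at Snord53 in all 3 regions, and in Snord16a the triangle lies above the other C57BL/6J mice.

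Hindbrain was compared with forebrain over both strains. The dissection could be checked on lists of cell type markers: all 4 measured brainstem markers were higher and both measured telencephalon markers lower in hindbrain, where 29.2% of all clusters were higher and 20.2% lower. All 5 markers of the cerebellum were also higher in hindbrain, although the cerebellum had been removed, while 3 of 3 choroid plexus markers and 3 of 3 microglial markers were lower. Of the 3 neuronal markers 2 were lower (list median −0.41), of the 3 astrocyte markers 2 were higher and 1 lower, and the 1 oligodendrocyte marker measured was higher by 0.81. Their part in the results for snoRNAs was not tested, and in pieces of tissue fewer cells of a type and less RNA per cell cannot be told apart.

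Between the regions, 9 members were higher and 14 lower in hindbrain at an FDR below 0.05 (29.2% and 20.2% of all clusters). The members' median difference was −0.01, against 0.02 over all clusters. Of the 23 clusters called, 21 had an unadjusted p below 0.05, as the FDR can lie below p where most clusters differ. The split depended on the processing. The 1.0ST arrays called 12 higher and 1 lower (14.7% and 12.8% of all clusters), the fit without surrogate variables 20 and 8 (33.1% and 32.5%) and arrays centred on their medians 4 and 19 (23.8% and 34.2%). With the mouse as a fixed replicate block 6 were higher and 7 lower (27.3% and 18.9%), and with the Benjamini-Hochberg adjustment 4 and 9 (25% and 17.2%). Without mouse DD676 the count was 3, and no other mouse moved it by more than 1.5 times when left out. The share of all clusters called without DD676 is not given here, so whether the fall was particular to the members was not tested. The lowest array median of the 1.1ST format, 6.28, was that of a NOD/ShiLtJ forebrain array, whose mouse is not named here. In all other groups of strain and region the array medians were 6.47 or more. Called the same way on both formats were 4 members (24% of all clusters), namely Snora23, Snora69, Snord42b and Snord8, all higher in hindbrain.

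Snord42b and Snora23 kept their calls under every alternative tried. Snord42b ranged from 8.08 to 8.73 (median 8.45) in forebrain and from 8.60 to 9.31 (median 8.93) in hindbrain over 16 mice. It was higher in hindbrain than in forebrain in 16 of 16 mice on both formats. The limma difference was 0.36 (SE 0.05, FDR 9.04e-08), a 1.29-fold change, and 0.28 on the 1.0ST arrays. Snora23, a box H/ACA RNA in an intron of the importin gene Ipo7, ranged from 7.99 to 9.13 (median 8.57) in forebrain and from 8.52 to 9.42 (median 8.99) in hindbrain, and was higher in 15 of 16 mice (16 of 16 on the 1.0ST arrays). Its difference was 0.37 (SE 0.09, FDR 0.000381), and 0.41 on the 1.0ST arrays. Ipo7 mRNA differed by 0.01.

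Snora69, in Rpl39, was higher by 0.18 (SE 0.08, FDR 0.0298) and in 12 of 16 mice, and by 0.41 and in 15 of 16 mice on the 1.0ST arrays. Snord8 was higher by 0.13 (SE 0.05, FDR 0.0176) and in 11 of 16 mice. On the 1.0ST arrays its fitted difference was 0.12, yet only 7 of 16 mice were higher and the region means differed by −0.04, so that its direction there came with the surrogate variables. The other members called higher were Snord73b (0.24), Snord53 (0.23), Snord14e (0.22) and both clusters of Snora3 (0.19 and 0.18). For these the 1.0ST arrays gave 0.14 to 0.36, with no call in the fit with surrogate variables. Without surrogate variables the 1.0ST arrays gave 0.12 to 0.32, and all of these clusters were called higher (FDR 2.23e-05 to 0.0352 by limma). Snora3, in Rpl27a, was higher in 14 of 16 mice at both clusters.

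Of the 14 members lower in hindbrain, none was called lower on the 1.0ST arrays. The largest differences were those of the clusters of Snord58b (−0.31 and −0.30), of Snord16a (−0.30) and of Snord49b (−0.30), a box C/D RNA in 2410006H16Rik. Snora20 (−0.29), Snora74a (−0.21), Snord52 (−0.21) and Snord96a (−0.19) followed, then Snord87 (−0.18), Snora75 (−0.16), Snord49a (−0.15) and Snord15a (−0.14). Without BB703 Snord16a was lower by 0.127 (FDR 0.0489), its call was lost without DD675, DD676 or BB702 (−0.27 to −0.13), and without BB703 the calls of Snora20 (−0.16), Snord87 (−0.12), Snora75 (−0.09), Snord57 (−0.11) and Snord15a (−0.12) were lost. Snord58b came nearest to a second call, with −0.30 and −0.29 on the 1.0ST arrays (FDR 0.0745 and 0.0849). Snord49a was called in the opposite direction there, at 0.23 (FDR 0.0367), and was higher in hindbrain in 11 of 16 mice on the 1.1ST and 15 of 16 on the 1.0ST arrays. Over the 5 fits (both formats with and without surrogate variables, and centred arrays), 8 of the 9 clusters called higher and 9 of the 14 called lower kept their direction in all 5.

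**Figure D5:**
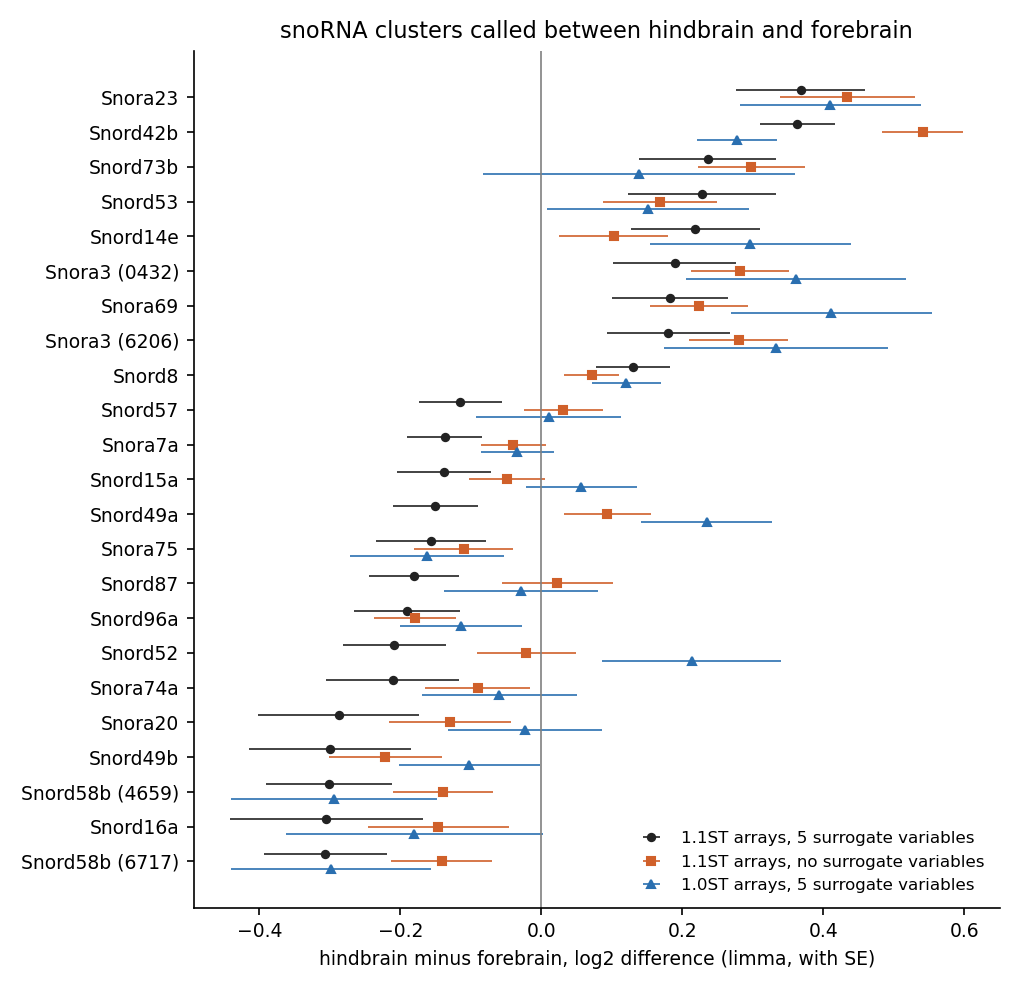
Difference hindbrain minus forebrain (log2, limma) of the 23 snoRNA clusters called on the 1.1ST arrays, with SE, and the same clusters without surrogate variables and on the 1.0ST arrays. Snora23 (0.37) and Snord42b (0.36) stay above 0 in all 3 fits, and clusters such as Snord49a and Snord52 change sign.

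Whole brain differed from forebrain at 3 members, all lower, where 9.21% of all clusters were higher and 6.51% lower. Snord73b ranged from 6.50 to 7.02 (median 6.81) in forebrain and from 6.33 to 7.13 (median 6.55) in whole brain, and fell by 0.22 (SE 0.08, FDR 0.0305 by limma). Its neighbour in Rps3a1, Snord73a, fell by 0.17 (FDR 0.0249), and Snord87, in the lncRNA gene Snhg6, by 0.16 (FDR 0.0213). Whole brain was above forebrain in 4, 4 and 6 of 16 mice for these 3. The 1.0ST arrays called none of them and gave −0.16, 0.04 and −0.05. The count ranged from 0 (without DD676) to 4 on leaving out a mouse, and was 1 without DD656, DD675, BB703, BB707 or BB708. These counts, too, were not compared with the shares of all clusters called.

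After clozapine, 3 members were lower than after vehicle and none was higher at an FDR below 0.05 by limma, where 1.31% of all clusters were higher and 2.19% lower. Treatment was given to mice, and the limma fit treats the regions of a mouse almost as separate animals, so the means of each mouse over its regions are given first. Snora34, a box H/ACA RNA in Kansl2 whose letters are printed above, had mouse means of 5.78 to 6.54 after clozapine and 6.32 to 6.64 after vehicle in C57BL/6J, and of 6.20 to 6.63 and 6.42 to 6.73 in NOD/ShiLtJ (n = 4 mice each). The groups overlapped in both strains. Its difference was −0.25 (SE 0.06, FDR 0.00996), and −0.09 on the 1.0ST arrays (FDR 0.331). Snora33, in Rps12, was lower by 0.15 (FDR 0.0263) and Snord14e by 0.20 (FDR 0.0429), with −0.01 and −0.14 and no call on the 1.0ST arrays. In C57BL/6J the mouse means of Snora33 were 5.25 to 5.61 after clozapine and 5.63 to 5.83 after vehicle and did not overlap, whereas in NOD/ShiLtJ they did (5.58 to 5.83 and 5.67 to 5.78).

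In the mixed model none of the 3 passed, with FDRs of 0.256 (Snora34), 0.206 (Snora33) and 0.426 (Snord14e). An exact permutation test was run on the mouse means over the 4900 exchanges of treatment within strains. On the 1.1ST arrays its two-sided, unadjusted p-values were 0.0473 (Snora34), 0.0518 (Snora33) and 0.238 (Snord14e). On the 1.0ST arrays they were 0.465, 0.590 and 0.369 in the same order. Only these 3 members were tested, and they had been chosen by their limma calls on the same 1.1ST values. Their p-values on the 1.1ST arrays are therefore biased low and give no separate support for an effect of clozapine. Without BB703, the difference of Snord14e was −0.11 (FDR 0.184). That of Snora33 was −0.12 (FDR 0.0800) and that of Snora34 −0.16 (FDR 0.0167). The calls of Snora33 and of Snord14e were each lost without any of 10 of the 16 mice and without the whole-brain array of DD656. The call of Snora34 held with any mouse left out, with values between −0.28 and −0.16.

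The mRNAs of host genes were compared with their snoRNAs. Where the host had a cluster of its own, 41 pairs of a member and its host had a median r of 0.200 over the 48 arrays (range −0.47 to 0.72), and of 0.314 on the 1.0ST arrays. Of the 17 such pairs whose member was called between hindbrain and forebrain, the host was called the same way in 3 and the opposite way in 2. Of 8 pairs with a strain call in forebrain, no host was called the same way and 1, Wdr43, the opposite way. As a group, 31 of the 47 hosts were measured, and 12 were higher and 3 lower in hindbrain (29.2% and 20.2% of all clusters), among them Gas5 (0.34), Nop56 (0.29), Eef2 (0.17) and Rpsa (0.15) higher and Mcmdc2 (−0.49), Rbmx (−0.13) and Rab3gap2 (−0.08) lower. In the forebrain of NOD/ShiLtJ 3 hosts were higher and 2 lower than in C57BL/6J (8.9% and 8.69% of all clusters). Genes of ribosomal proteins have near-identical copies in the genome, so their clusters may also read the copies.

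Of the 23 listed proteins of snoRNA particles and their maturation, 21 were measured. In hindbrain 5 were higher and 5 lower than in forebrain (29.2% and 20.2% of all clusters), with a median of 0.01 over the list and 0.02 over all clusters. In the box C/D core, Nop56 was higher by 0.29 (SE 0.04, FDR 5.75e-09 by limma), and Fbl (fibrillarin, the methyltransferase), Nop58 and Snu13 differed by 0.03, 0.004 and 0.01 and were not called. In the box H/ACA core, Nhp2 fell by 0.48 (SE 0.05, FDR 2.57e-10) and Gar1 by 0.15 (FDR 0.00867) and Nop10 rose by 0.19 (FDR 5.39e-06), while Dkc1 (dyskerin, the pseudouridine synthase) differed by 0.06 and was not called. Of the assembly factors, Naf1 fell by 0.31, and Znhit6 and Shq1 rose by 0.18 and 0.15. The 1.0ST arrays gave the same signs for the 7 named here that were called. In the forebrain of NOD/ShiLtJ 3 were higher and 3 lower (8.9% and 8.69% of all clusters), namely Znhit6 (0.14), Phax (0.14) and Nop56 (0.11) higher and Naf1 (−0.28), Nolc1 (−0.13) and Nop10 (−0.13) lower. No member of the list was called after clozapine or in the interaction.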

How the data were processed

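Total RNA of 48 samples (3 regions of 16 mice) was hybridised to both array formats. The deposited log2 intensities had been made by the authors with the robust multiarray average of Affymetrix Expression Console 1.1, and 28310 clusters were held by each table. Array medians lay between 6.28 and 6.61 (1.1ST) and between 8.14 and 8.23 (1.0ST). Of the clusters, 21207 carry 1 gene symbol, 1867 several and 5236 none in the 1.1ST gene table. That of the 1.0ST array named 55 of the 63 members alike, 5 with several symbols and 3 not at all. A further 13 clusters with several symbols, one of them a snoRNA, and 1 named only in the 1.0ST table (Snord42a) were left out.

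Differences were fitted on all clusters of the 1.1ST arrays with limma 3.58.1 (statmod 1.5.0, R 4.3.3). The model held 6 means (strain by region), treatment, 5 surrogate variables (each the first principal component of 1000 transcripts) and a random block for the mouse. The batch is not in the labels and was not used. Tests were two-sided, the false discovery rate (FDR) was computed as in the study's methods, and members were called below 0.05. Mixed models used lme4 1.1.37 and lmerTest 3.1.3, and other values Python 3.11.15 with pandas 2.3.3 and scipy 1.17.1. The numbers in the labels name the mouse, so they pair the samples: within a mouse, residuals correlated on average at 0.0745 (forebrain and hindbrain), 0.0405 (forebrain and whole brain) and −0.0188 (hindbrain and whole brain), against −0.0223 between mice. The fit was tested on simulated data with independent noise and a small share for the mouse. The simulation held no hidden factor shared by arrays. It therefore cannot show how calls depend on surrogate variables or on centring. The number of mice and arrays limits the precision.

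The members, gene lists and tests were chosen with earlier results of these data known. Named were the members called (up to the 12 largest differences each way), the 10 with the highest mean, the 5 with the largest SD, the 5 with the highest and lowest r between formats, the 5 clusters most like Snord53, up to 4 listed genes called each way and the hosts of named members, and, beyond this rule, members that stood apart in 1 mouse or varied together. Host genes and microRNA hairpins come from RefSeq tables of GRCm38.p6. A list of 27 host genes chosen by name, many of them also among the hosts by position, had 15 measured. Of these, 8 were higher and 1 lower in hindbrain (29.2% and 20.2% of all clusters). Alternatives were the 1.0ST arrays, no surrogate variables, centred arrays, other blocks, the mixed model, the Benjamini-Hochberg adjustment, brighter clusters, vehicle mice alone and each mouse left out, and, added after seeing the data, the 1.0ST arrays without surrogate variables. Some items are not reported here.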

Additional observations from a re-analysis of the deposited data

Results flagged for a closer look

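Each member called in a comparison was examined in the 6 groups of 8 mice on the 1.1ST arrays for a highest or lowest mouse whose gap to the next, divided by the range of the group, passed the 95% critical value of Dixon's test. Of 174 groups of 29 distinct clusters, 22 did so. The groups share mice and arrays, and only members already called were examined. The count was therefore not compared with a rate expected by chance or with other clusters. Values are log2 intensities.

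In C57BL/6J, mouse BB703 was apart at Snord16a in forebrain (8.618, next 7.732), hindbrain (8.297, next 7.477) and whole brain (8.594, next 7.543), and at Snord14e in forebrain (7.405, next 7.938) and whole brain (7.365, next 7.875). Its values on the 1.0ST arrays lay on the same side of the group median in these 5 groups. The same mouse was highest in forebrain at both clusters of Snord58b (4.686 and 4.793), in hindbrain at Snord52 (4.875) and in whole brain at Snora75 (7.149), and lowest in forebrain at Snora34 (5.411) and in whole brain at Snora69 (5.991). The other mice of C57BL/6J were BB686, highest in forebrain at Snora33 (5.919) and Snora69 (6.86), and BB685, lowest in forebrain at Snord57 (10.17).

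In NOD/ShiLtJ, mouse DD675 was lowest in whole brain at Snord49b (9.187, next 10.14) and at both clusters of Snora3 (7.682 and 7.801). DD676 was lowest in forebrain at Snora28 (7.484) and Snord16a (6.591), although on the 1.0ST arrays it lay above the group median at both (9.045 against 8.851, and 8.449 against 8.282). DD658 was highest in hindbrain at Snord49a (7.693) and in whole brain at Snora74a (6.747), and DD659 was lowest in hindbrain at Snora62 (5.536).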

How the results depend on the processing

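The 49 differences of single members called gave 1289 values under the alternatives, of which 969 kept the direction and the call, 300 kept the direction alone and 20 reversed. Kept in all were 6: Snora23 and Snord42b between hindbrain and forebrain, Snord53 between strains in the 3 regions and Snord58b (10456717) between strains in forebrain, although its mean below 5 left it out of the alternative of brighter clusters. On the 1.0ST arrays 13 members were called between hindbrain and forebrain (main 23), 0 between whole brain and forebrain (3), 17 and 15 between strains in hindbrain (5) and whole brain (7) and 0 for clozapine (3). On these arrays 14.7% of all clusters were higher and 12.8% lower in hindbrain than in forebrain. In NOD/ShiLtJ 13.6% were higher and 11.5% lower than in C57BL/6J in hindbrain, and 10.3% and 9.23% in whole brain. The Benjamini-Hochberg adjustment gave 13 between hindbrain and forebrain. A fixed replicate block of the mouse gave 13 there, 2 for whole brain and 0 for the interaction, could not be fitted for strain or treatment, and without a replicate block the counts were 23, 3, 8, 5, 7 and 3 as in the main fit. Without surrogate variables 5 members were called between strains in forebrain (8) and 1 for clozapine. On the 1.0ST arrays without surrogate variables 41 were called between hindbrain and forebrain, 0 for whole brain and 0 for clozapine. The share of all clusters called in that fit is not given here, so whether the 41 set the members apart was not tested. The mixed model called 3 between strains in hindbrain and 0 for clozapine. Clusters with a mean above 5 gave 1 for whole brain, vehicle mice alone 7 for whole brain and 5 and 4 between strains in forebrain and whole brain, and leaving out the whole brain of DD656 gave 1 for clozapine. The median r between formats was 0.4825 with centred arrays and 0.5724 for clusters above 5. Leaving out each mouse gave 3 (without DD676) to 24 calls between hindbrain and forebrain, 0 to 4 for whole brain, 6 to 9, 3 to 9 and 5 to 9 between strains in forebrain, hindbrain and whole brain, 0 to 1 for the interaction, 1 to 5 for clozapine, 48 clusters above 5 throughout, and a median r of 0.4541 to 0.5177. Where no share of all clusters called under an alternative is printed, here or in the Results, the count was not compared with all clusters. Such a count gives no result about the members as a group. The cause of these changes was not tested.

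Reversed between hindbrain and forebrain on the 1.0ST arrays were Snord49a (0.234), Snord52 (0.213), Snord57 (0.0104) and Snord15a (0.0568); without surrogate variables Snord87 (0.0227), Snord49a (0.0937) and Snord57 (0.0314); with both Snord87 (0.0744), Snord49a (0.293), Snord8 (−0.0361), Snord52 (0.0761), Snord57 (0.0589) and Snord15a (0.107); and in vehicle mice Snord52 (5.55e-05), Snord57 (0.0151) and Snord73b (−0.0734). Between whole brain and forebrain Snord73a reversed on the 1.0ST arrays (0.0355, and 0.046 without surrogate variables). On those arrays without surrogate variables the strain difference of Snord8 in forebrain was 0.000334 and the clozapine difference of Snora33 was 0.0329. Controls were already absent from the deposited tables used here, so a fit with them was not run.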
